A study of Mus musculus with 9 samples.

Results

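The tibiae of liraglutide-treated diabetic mice (Lira) were compared with those of mice of normal glucose tolerance (NGT), a comparison that asks what remained different from normal bone under treatment and uses none of the untreated diabetic libraries. It rests on 6 of the 9 libraries of the study, 3 Lira and 3 NGT, chosen by their labels alone and with 1 library per mouse. All mice were adult females of the C57BL/6J strain. Lira mice had type 1 diabetes induced by 1 injection of streptozotocin (STZ), a toxin taken up by the insulin-producing beta cells, and were treated daily with liraglutide, a long-acting agonist of the glucagon-like peptide-1 (GLP-1) receptor. Their labels give 8 weeks of treatment for mice 1 and 2 and 9 weeks for mouse 3, so the longer treatment cannot be told apart from that animal. NGT mice received the citrate vehicle in place of STZ and saline in place of the drug. The remaining 3 libraries are from STZ-treated mice given saline (T1D) and are shown beside the comparison as levels only. STZ and liraglutide differ between the groups together, so their effects cannot be told apart here.

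Bone is kept in balance by osteoblasts, which lay down collagen and mineral, by osteocytes, which are osteoblasts buried in the matrix, and by osteoclasts, which resorb it. Insulin deficiency slows bone formation, and long bones of diabetic animals are known for low turnover and low mass. GLP-1 is an incretin, a gut hormone that raises insulin release after a meal, and its receptor is best known from the pancreas and the brain. A whole tibia also holds marrow, fat, vessels and any muscle left attached, and in such bulk libraries fewer cells of a type and less RNA per cell cannot be told apart.

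Library totals ranged from 13086373 to 15527097 counts in these 6 mice, and a count of 0 allows up to 3 counts, which equalled 0.172 to 0.232 CPM, counts scaled to a library total of 1e6. CPM values are given on the TMM scale of the 6 libraries, and those of T1D mice on the scale of all 9, which moved the other mice by factors between 0.991 and 1.04. Although the bones had been cleaned of muscle, a list of 20 fast skeletal muscle genes took between 18.8% (NGT mouse 1) and 29.0% (NGT mouse 3) of the counts. The 3 Lira mice lay between these at 25.4%, 25.0% and 19.0%.

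The receptor of the drug was hardly seen. *Glp1r* (NCBI gene 14652) had 1 count in NGT mouse 1 and 0 counts in the other 5 mice and in the 3 T1D mice, so that no level above the limit of 3 counts per library was detectable. Markers of bone itself were present but uneven. *Col1a1* (NCBI gene 12842), the main chain of bone collagen, stood at 725, 86.8 and 722 CPM in the NGT mice and 401, 186 and 616 CPM in the Lira mice. *Bglap2*, an osteocalcin gene of mature osteoblasts that shares near-identical copies and is therefore uncertain, stood at 18.5, 0.0748 and 27.2 CPM against 5.21, 0.524 and 12.7 CPM. *Sost*, the osteocyte inhibitor of Wnt signaling, had at most 16 counts in any of the 6 mice and was not tested. Mouse 2 of either group was thus poor in osteoblast transcripts, and the groups overlapped.

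Marrow content set the mice apart more than the groups did. The mean log2(CPM + 1) of 26 erythroid genes was 6.13, 2.93 and 4.96 in the NGT mice and 5.69, 3.60 and 7.92 in the Lira mice. For 23 neutrophil genes it was 5.99, 0.753 and 3.85 in the NGT mice and 4.52, 2.44 and 6.95 in the Lira mice. Lira mouse 3 was the highest and NGT mouse 2 the lowest in both lists, and the other 4 mice lay between them. The neutrophil alarmin gene *S100a8* spanned 284, 0.374 and 54.98 CPM in NGT mice and 76.9, 13.03 and 627 CPM in Lira mice. In Lira mouse 3, 638 of the tested genes exceeded 2 times their level in each of the other 5 libraries, against 96 in NGT mouse 1, 92 in Lira mouse 1 and 7 to 12 in the remaining 3 mice.

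**Figure D1:**
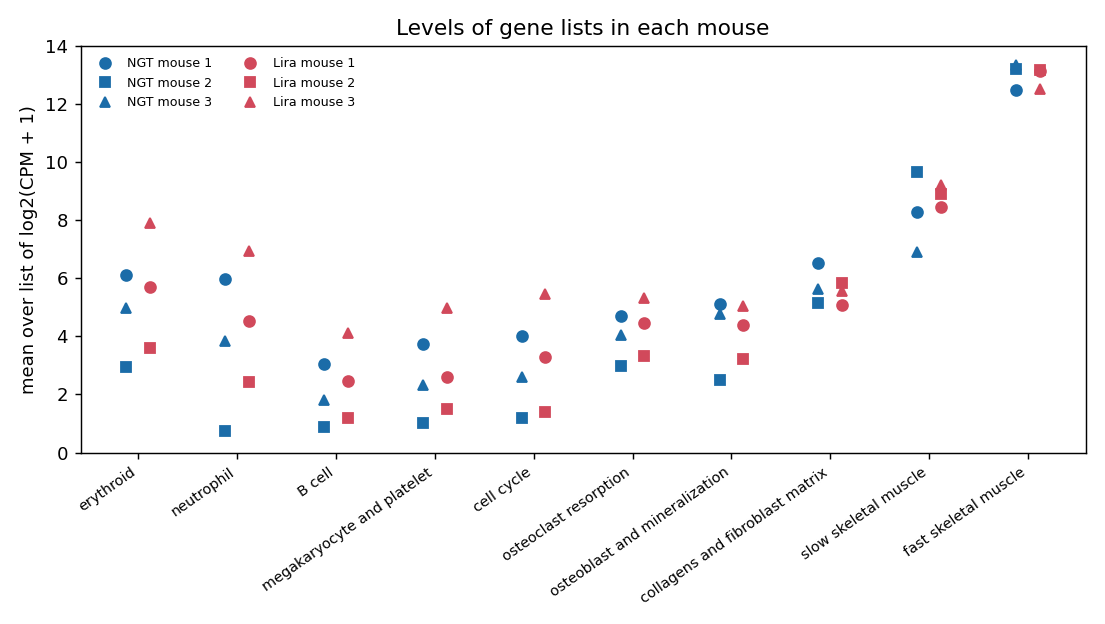
Mean log2(CPM + 1) over the members of 10 gene lists (vertical axis) in each of the 3 NGT mice (blue) and 3 Lira mice (red), with the marker shape giving the mouse number. Within either group the marrow lists span several log2 units, from 0.753 to 5.99 for neutrophil genes in NGT mice and from 2.44 to 6.95 in Lira mice, and the groups overlap in every list shown.

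Against this spread, no gene separated the groups at the thresholds of the study, more than 2-fold and, after adjustment, a p-value below 0.05. Tested were 13444 genes that had 10 counts or more in 3 or more of the 6 libraries. Of these, 0 (0%) were differentially expressed genes (DEGs) between Lira and NGT mice by edgeR's quasi-likelihood test, whose lowest Benjamini-Hochberg adjusted p-value was 0.9996. DESeq2 on the same genes also gave 0 DEGs, with a lowest adjusted p-value of 0.0995. Before adjustment, 117 genes (0.87%) were at p under 0.05 with edgeR and 136 (1.01%) with DESeq2, of which 101 were common to the 2 tools. Were no gene different, a share of 0.05 of the genes would be expected at this level, more than either tool gave. Of the 117, 63 (0.469% of genes tested) were higher and 54 (0.402%) lower in Lira mice. With library totals in place of TMM the split turned to 35 higher and 93 lower, and with all 9 libraries in the fit it was 68 higher and 41 lower. The ranges of the groups did not overlap for 301 genes (2.24%) higher and 303 genes (2.25%) lower in Lira mice, counts that differ by 2 genes. Were no gene different, such ranges would be expected for a share of 0.1 of the genes, both directions together, more than was seen.

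The variation between mice of a group was correspondingly large. Relative to a gene's mean, the SD between mice (the biological coefficient of variation) was 0.424. The median log2 fold change over all genes was 0.024 and its median SE 0.27. Across genes, which are not independent replicates, the Spearman correlation of CPM was 0.942 for the median of the 6 pairs of mice within a group and 0.960 for the median of the 9 pairs across the groups. The count at p under 0.05 was 397 genes without NGT mouse 1 and 416 without Lira mouse 2, and 72 without NGT mouse 3, with 0 DEGs in each of these fits. These were 3.03%, 3.11% and 0.539% of the genes tested, beside 0.87% in the reported fit. Counts of list members taken from these fits stand beside these shares. All single-gene differences below are therefore descriptions of genes at the low end of unadjusted p-values, none of which passed the adjusted threshold. In an exact permutation test of 3 mice against 3, ranges that do not overlap give p = 0.1, the smallest value this design allows.

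Among genes of at least 5 CPM whose groups did not overlap, the 12 with the lowest p-values on either side are described by name, first those higher in Lira mice. *Sox4* (NCBI gene 20677), a transcription factor of progenitor cells that also acts in osteoblast development, stood at 9.86, 8.97 and 5.64 CPM in NGT mice and 26.8, 18.7 and 17.3 CPM in Lira mice. Its log2 fold change was 1.36 ± 0.29 (SE), with an adjusted p-value of 1.00 (edgeR). The T1D mice had 13.97, 7.53 and 7.20 CPM, so that T1D mice 2 and 3 lay within the NGT range and T1D mouse 1 between the groups. *Hif3a* (NCBI gene 53417), a member of the hypoxia-inducible factor family, stood at 1.54, 1.495 and 1.78 CPM in NGT mice against 7.09, 3.60 and 4.46 CPM in Lira mice (log2 fold change 1.65 ± 0.36 (SE)). *Cish* (NCBI gene 12700), a feedback inhibitor of cytokine and growth hormone signaling, went from 2.43, 1.94 and 1.24 CPM in NGT mice to 10.6, 4.34 and 5.72 CPM in Lira mice, a log2 fold change of 1.88 ± 0.46 (SE). In each of these 3 genes Lira mouse 1 was the highest of the 6 mice, but the lowest Lira mouse still lay above the highest NGT mouse.

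*Tnfrsf12a* (NCBI gene 27279), the receptor of the cytokine TWEAK and a gene of injured muscle, was at 22.3, 29.8 and 19.6 CPM in NGT mice and 52.7, 54.9 and 35.02 CPM in Lira mice (log2 fold change 0.99 ± 0.24 (SE)). T1D mice held 101, 51.9 and 16.5 CPM, spread below and above both groups. *Ier5*, an immediate early response gene, had 8.51, 7.999 and 5.95 CPM in NGT mice and 16.4, 10.3 and 15.4 CPM in Lira mice (log2 fold change 0.91 ± 0.27 (SE)). *Cebpb*, a C/EBP transcription factor, was at 25.3, 31.4 and 31.01 CPM in NGT mice and 57.7, 38.3 and 41.5 CPM in Lira mice (log2 fold change 0.65 ± 0.20 (SE)), and its relative *Cebpd* at 33.5, 53.1 and 36.4 CPM against 242, 75.4 and 77.5 CPM (log2 fold change 1.68 ± 0.51 (SE), and 0.90 without Lira mouse 1). The remaining 5 of the 12 on the higher side were *Ddit4* and *Arrdc3*, described with the glucocorticoid list, *Rnf115*, which encodes an E3 ubiquitin ligase (0.62 ± 0.19 (SE) on the log2 scale), *Pom121*, a nuclear pore gene (0.44 ± 0.13 (SE)), and the uncharacterized *Gm40814* (1.10 ± 0.29 (SE)).

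On the lower side, *Me1* (NCBI gene 17436), cytosolic malic enzyme, which supplies NADPH for fatty acid synthesis, was at 569, 467 and 517 CPM in NGT mice and 313, 354 and 312 CPM in Lira mice. Its log2 fold change was -0.66 ± 0.17 (SE) and the 3 Lira mice lay close together, below the lowest NGT mouse. T1D mice had 559, 403 and 380.1 CPM, 2 of them between the groups. *Aqp7* (NCBI gene 11832), the glycerol channel of fat and muscle, was at 16.003, 13.8 and 12.4 CPM in NGT mice and 5.84, 9.89 and 7.44 CPM in Lira mice (log2 fold change -0.87 ± 0.26 (SE)). *Ghr* (NCBI gene 14600), the growth hormone receptor, was at 188, 216 and 237 CPM against 149, 167 and 134 CPM (log2 fold change -0.51 ± 0.17 (SE)). For *Ghr* the ranges were narrowly apart, 167 CPM in the highest Lira mouse and 188 CPM in the lowest NGT mouse.

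*Pmepa1* (NCBI gene 65112), a TGF-β-induced inhibitor of TGF-β signaling, had the lowest p-value of all genes over 5 CPM. It stood at 47.1, 44.8 and 46.9 CPM in the NGT mice, nearly without spread, and at 25.6, 21.7 and 30.6 CPM in the Lira mice (log2 fold change -0.83 ± 0.16 (SE)). T1D mice ranged from 20.8 to 91.6 CPM and spanned both groups, and with all 9 libraries in the fit *Pmepa1* was no longer at p under 0.05. *Pcdh12*, a protocadherin of vascular endothelium, was at 6.85, 6.13 and 5.57 CPM in NGT mice, 3.13, 3.45 and 2.86 CPM in Lira mice and 2.83, 3.21 and 2.20 CPM in T1D mice. Here the Lira and T1D mice shared the low range, below every NGT mouse. *Lpp*, a protein of focal adhesions, was at 36.4, 46.6 and 44.2 CPM in NGT mice and 25.3, 29.96 and 29.1 CPM in Lira mice (log2 fold change -0.59 ± 0.16 (SE)). The other members on this side were *Cacng7*, a calcium channel subunit gene (-0.84 ± 0.25 (SE)), *Cpeb1*, a regulator of mRNA polyadenylation (-0.65 ± 0.21 (SE), with ranges barely apart), *Impact*, an inhibitor of the amino acid sensor Gcn2 (-0.41 ± 0.13 (SE)), *Ccdc191* (-0.9969 ± 0.26 (SE)), *Tmem266* (-1.13 ± 0.29 (SE)) and *Dbp*, described with the clock genes. As for *Pcdh12*, all 3 T1D mice lay below every NGT mouse for *Ccdc191* and *Tmem266*. On the higher side, all 3 lay above every NGT mouse for *Cish*, *Ier5* and *Cebpd*. For the remaining genes of either side, the T1D mice did not all lie beyond the NGT range in 1 direction.

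**Figure D2:**
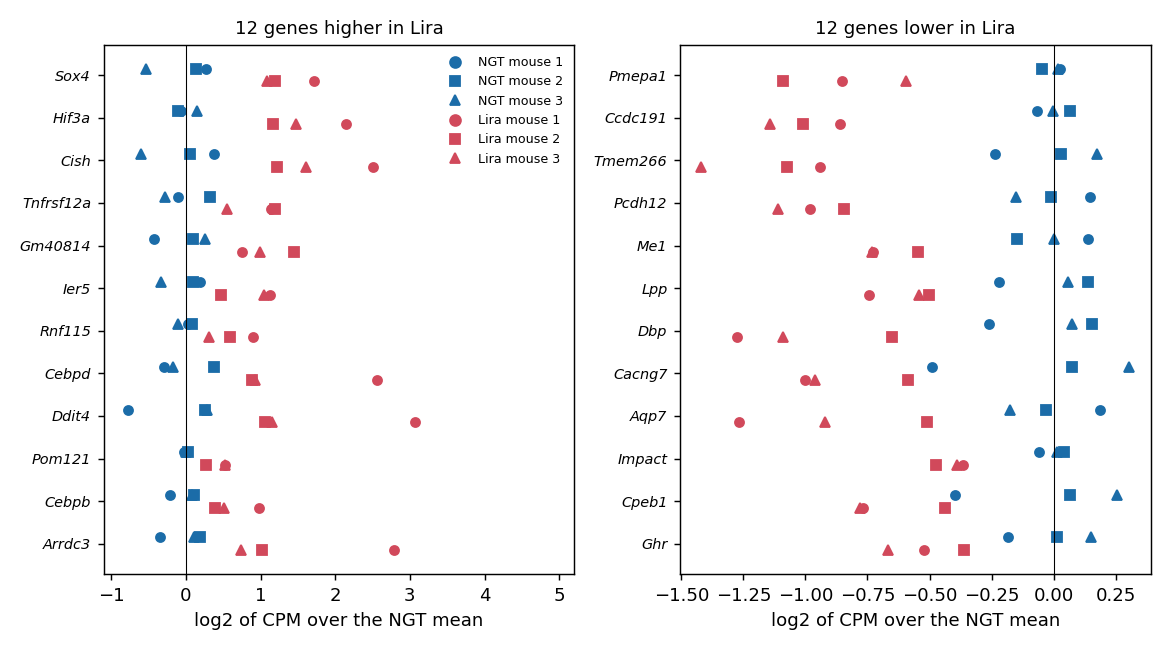
Log2 of each mouse's CPM over the mean of the 3 NGT mice (horizontal axis) for the 12 genes of lowest p higher in Lira (left) and the 12 lower in Lira (right), with NGT mice in blue and Lira mice in red and the marker shape giving the mouse number. The genes were chosen for ranges that do not overlap, so the gap between colours is part of the choice; the plot shows its width, narrowest for *Cpeb1* (lowest NGT mouse 55.9 CPM, highest Lira mouse 54.3 CPM) and *Cacng7* (22.1 and 20.7 CPM) and set mainly by Lira mouse 1 in the upper range of *Ddit4*, *Arrdc3* and *Cebpd*.

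Across the 17 alternative fits, 13 of the 12618 genes tested in every fit kept an unadjusted p-value under 0.05 in every one. The fits reuse the same NGT and Lira mice, so they are not independent of each other. The 7 higher in Lira mice were *Sox4*, *Hif3a*, *Cish*, *Gm40814*, *Ier5*, *Cebpb* and *Siglec1*, and the 6 lower were *Me1*, *Lpp*, *Aqp7*, *Pcdh12*, *Cacng7* and *Ccdc191*. *Siglec1*, the sialoadhesin of resident macrophages, was low throughout, at 1.22, 0.449 and 0.387 CPM in NGT mice and 1.81, 4.57 and 3.03 CPM in Lira mice (log2 fold change 2.17 ± 0.61 (SE)). Of the other 18 tested macrophage genes, 0 were at p under 0.05, and *Csf1r*, the macrophage colony-stimulating factor receptor gene, stood at 27.5, 6.95 and 9.90 CPM against 20.995, 14.98 and 34.2 CPM. The macrophage list as a whole had a median log2 fold change of 0.52, with 17 of 19 members above 0. Without NGT mouse 1 the median was 1.36 and 9 of 16 members were higher at p under 0.05, beside 3.03% of all genes in that fit. Without NGT mouse 2 the median was 0.12.

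Genes were next grouped into 49 lists, which held 853 of the tested genes. Of these, 13 were higher and 6 lower in Lira mice at p under 0.05, beside 0.469% and 0.402% of all genes. In 36 lists no member reached this level. A type I interferon list held the most members that did.

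Type I interferons are antiviral cytokines, and cells answer them by switching on a shared set of genes. Of 26 tested genes of this set, 5 were higher in Lira mice at p under 0.05 and 0 were lower. *Ifit1*, an antiviral RNA-binding protein, was at 3.26, 2.32 and 2.63 CPM in NGT mice and 6.40, 3.89 and 10.9 CPM in Lira mice (log2 fold change 1.36 ± 0.43 (SE)). *Irf7*, the factor that amplifies the interferon response, was at 7.04, 3.59 and 4.72 CPM against 9.59, 8.16 and 22.1 CPM (log2 fold change 1.38 ± 0.47 (SE)). Both were highest in Lira mouse 3, and both ranges were apart between the groups.

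*Ifi44* was the most even of the 5, at 1.41, 1.12 and 1.93 CPM in NGT mice and 3.13, 2.996 and 3.32 CPM in Lira mice (log2 fold change 1.08 ± 0.34 (SE)). *Ifit3* was at 6.79, 4.26 and 4.41 CPM against 7.58, 8.46 and 11.2 CPM (log2 fold change 0.82 ± 0.30 (SE)), and *Oasl1* at 1.66, 0.598 and 0.851 CPM against 2.57, 1.498 and 5.38 CPM, where the groups overlapped (log2 fold change 1.59 ± 0.63 (SE)). The list had a median log2 fold change of 0.86, with 25 of 26 members above 0, beside 0.024 over all genes. Its T1D levels were uneven too, with *Irf7* at 32.2, 6.94 and 7.34 CPM and *Ifit1* at 17.5, 5.43 and 3.60 CPM.

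The interferon values depended on single mice. The list's mean log2(CPM + 1) was 3.02, 2.07 and 2.31 in NGT mice and 2.90, 2.64 and 3.88 in Lira mice, so that it was highest in Lira mouse 3 and NGT mouse 1 and lowest in NGT mouse 2. The neutrophil list had the same mice at these 3 positions, but for that list NGT mouse 3 lay above Lira mouse 2 and for the interferon list below it. Without Lira mouse 3, 1 member was at p under 0.05, the median was 0.16, and the log2 fold changes of *Ifit1*, *Irf7* and *Oasl1* were 0.91, 0.79 and 0.96. Without NGT mouse 2 the count was 0 and without NGT mouse 3 it was 1, whereas without NGT mouse 1 it was 10 and without Lira mouse 2 it was 8. The share of all genes at this level moved as well, from 0.87% to 3.03% without NGT mouse 1 and 3.11% without Lira mouse 2. It was 1.28% without Lira mouse 3, 0.665% without NGT mouse 2 and 0.539% without NGT mouse 3. Fits with all 9 libraries and with library totals in place of TMM each left 2 members. With the erythroid and neutrophil level of each mouse as a covariate, 8 members were at p under 0.05, beside 1.81% of all genes, and the median was 0.46. The part of marrow in these values was otherwise not tested.

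**Figure D3:**
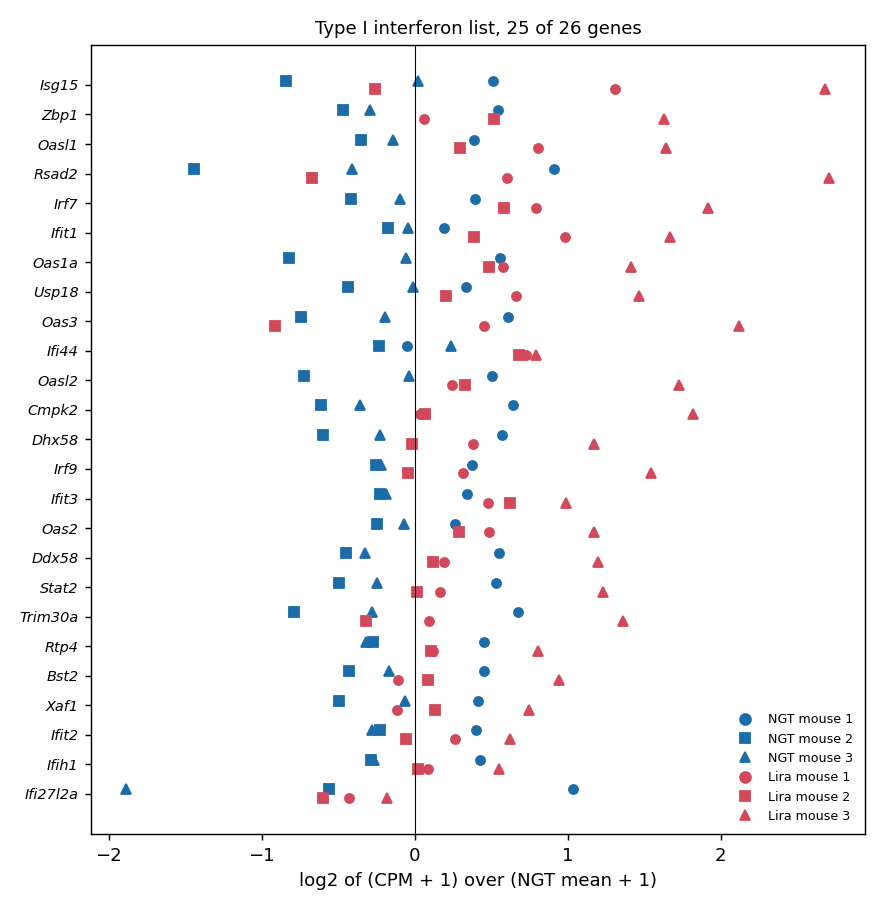
Log2 of each mouse's CPM + 1 over the NGT mean + 1 (horizontal axis) for 25 of the 26 tested genes of the type I interferon list, ordered by their fitted fold change, with NGT mice in blue and Lira mice in red. Lira mouse 3 is the rightmost point for every gene shown except *Ifi27l2a*, while Lira mice 1 and 2 mix with NGT mouse 1 for most genes; *Ifit1*, *Ifi44*, *Irf7*, *Ifit3* and *Oas2* are the 5 whose ranges are apart.

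The upstream sequences of 2 of these genes are shown because they carry the interferon-stimulated response element, a motif known from many genes of this set. Its core was searched as GAAANNGAAA on both strands in the 250 bases before the transcription start (RefSeq, build GRCm38.p6, which is not the build of the counts). It occurred in 2.98% of 32851 such windows and in 9 of the 19 list genes with a window. The list was assembled from genes known to answer interferon, so this share is a description of the list. In the 100 bases printed, capitals mark the matches, which read as the reverse complement here and do not overlap each other.
Ifit1 promoter, chr19:34640749-34640848, plus strand: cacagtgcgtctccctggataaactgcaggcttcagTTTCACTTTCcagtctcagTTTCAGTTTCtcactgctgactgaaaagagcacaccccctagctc
Ifit3 promoter, chr19:34583345-34583444, plus strand: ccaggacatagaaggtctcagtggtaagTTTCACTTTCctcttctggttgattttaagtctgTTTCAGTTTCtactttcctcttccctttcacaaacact
Each of the 2 windows holds 2 matches. The windows of *Irf7*, *Ifi44* and *Oasl1* hold none of these letters.

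The clock list held the only pair of lower genes. Circadian clock genes drive daily rhythms of metabolism, and their transcript levels depend on the hour of sampling, which is not given in the sources used here. *Dbp*, a clock output factor that binds D-box elements, was at 9.15, 12.2 and 11.5 CPM in NGT mice and 4.52, 6.97 and 5.15 CPM in Lira mice (log2 fold change -0.98 ± 0.26 (SE)). *Per3*, a period gene, was at 14.1, 14.2 and 18.2 CPM against 8.55, 9.81 and 12.1 CPM (log2 fold change -0.61 ± 0.22 (SE)). Both sets of ranges were apart. T1D mice had 5.44, 7.07 and 39.5 CPM of *Dbp* and 8.32, 18.2 and 37.3 CPM of *Per3*, so that T1D mouse 1 lay below all NGT mice in both genes, T1D mouse 2 in *Dbp*, and T1D mouse 3 far above all NGT mice in both.

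Over the list, 10 of 20 clock genes had a log2 fold change above 0. *Per1*, a period gene that glucocorticoids also induce, was at 59.3, 112 and 77.7 CPM in NGT mice and 185, 112 and 104 CPM in Lira mice (log2 fold change 0.69 ± 0.32 (SE), and 0.39 without Lira mouse 1). *Nr1d1* and *Nr1d2*, the Rev-erb repressors of the clock, had log2 fold changes of -0.38 ± 0.28 (SE) and -0.42 ± 0.19 (SE), with overlapping groups. For *Nr1d1* it ranged from -0.61 without Lira mouse 2 to -0.16 without NGT mouse 2, and for *Nr1d2* it was -0.27 without NGT mouse 3. Of the 20 clock genes tested, 2 were lower and 0 higher at p under 0.05, and the median was -0.049. This split did not hold throughout, with 2 higher and 2 lower genes with library totals in place of TMM and with the erythroid and neutrophil covariate, 2 and 3 with the muscle covariate, 3 and 2 without Lira mouse 3, and 1 and 1 without NGT mouse 2 or Lira mouse 2. With all 9 libraries in the fit neither *Dbp* nor *Per3* was at p under 0.05, with log2 fold changes of -0.97 and -0.60.

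The *Per3* promoter is shown because it holds the element that Dbp binds. The D-box was searched as TTATGTAA on both strands in the same 250 bases and occurred in 0.819% of all windows. Among the 17 clock genes with a window it was found in *Per3* only. Capitals mark its 2 matches in the 100 bases printed.
Per3 promoter, chr4:151044794-151044893, minus strand: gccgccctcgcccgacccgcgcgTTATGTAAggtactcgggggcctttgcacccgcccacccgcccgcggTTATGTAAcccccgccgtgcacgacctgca
A match describes the letters and is no evidence of binding in these bones.

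Of the 20 tested genes of the glucocorticoid and metallothionein list, 15 were highest of the 6 mice in Lira mouse 1, 3 in Lira mouse 3 (*Lcn2*, *Hsd11b1* and *Dusp1*), and 1 each in NGT mouse 2 (*Zbtb16*) and NGT mouse 3 (*Nr3c1*, the glucocorticoid receptor gene). Glucocorticoids and low insulin switch muscle and other tissues to fat oxidation and protein breakdown, partly through FoxO factors. The list member *Ddit4* (NCBI gene 74747), which restrains the growth kinase complex mTORC1, was at 17.2, 35.4 and 36.03 CPM in NGT mice and 247, 61.4 and 65.9 CPM in Lira mice (log2 fold change 2.08 ± 0.63 (SE)). *Arrdc3* (NCBI gene 105171), an arrestin-domain adaptor outside the list, was at 55.2, 79.9 and 75.3 CPM against 486, 143 and 117 CPM (log2 fold change 1.83 ± 0.57 (SE)). Lira mouse 1 was the highest by far in both, and Lira mice 2 and 3 lay above all NGT mice. Without Lira mouse 1 the log2 fold changes were 1.11 for *Ddit4* and 0.89 for *Arrdc3*, more than 1.5 times smaller.

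*Pfkfb3*, an activator of glycolysis and a member of the glycolysis list, stood at 131, 154 and 60.4 CPM in NGT mice and 813, 187 and 199.9 CPM in Lira mice (log2 fold change 1.80 ± 0.68 (SE), and 0.76 without Lira mouse 1). In the glucocorticoid list, *Errfi1*, an inhibitor of EGF receptors, was at 39.8, 63.2 and 44.2 CPM against 164, 64.3 and 65.9 CPM (log2 fold change 1.0004 ± 0.42 (SE), and 0.41 without that mouse). The metallothionein gene *Mt2* was at 44.1, 58.8 and 43.8 CPM against 299, 52.1 and 77.02 CPM, so that Lira mouse 2 fell inside the NGT range. *Zbtb16*, a zinc finger transcription factor that glucocorticoids induce, was at 167, 324 and 256 CPM against 311, 139 and 117 CPM. Of the 20 genes, 2 were higher and 0 lower at p under 0.05, and its median log2 fold change of 0.50 became 0.072 without Lira mouse 1, with 1 gene higher and 1 lower. The count of higher genes was 6 without Lira mouse 3, 5 without Lira mouse 2, with DESeq2 and with the erythroid and neutrophil covariate, 1 without NGT mouse 3, and 0 with the replicate block.

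The muscle atrophy genes *Trim63* and *Fbxo32* were also highest in Lira mouse 1, as was *Pdk4*, a member of the glucocorticoid list and not of the muscle atrophy list. *Trim63* and *Fbxo32*, the ubiquitin ligases of muscle wasting, were at 321, 989 and 686 CPM and 746, 1864 and 854 CPM in NGT mice and at 2494, 349 and 314 CPM and 2537, 686 and 498 CPM in Lira mice. *Pdk4*, the kinase that shuts glucose out of mitochondria, was at 956, 3519 and 1109 CPM against 5873, 829 and 1292 CPM. Lira mouse 1 was the highest of the 6 in all 3 genes, while Lira mice 2 and 3 lay below all or all but 1 of the NGT mice for *Trim63* and *Fbxo32* and, for *Pdk4*, on either side of the 2 lower NGT mice. Of the 24 genes of the muscle atrophy and FoxO list, 0 were at p under 0.05. However, 3 were higher without Lira mouse 2, 3 without Lira mouse 3, and 2 with DESeq2 or the erythroid and neutrophil covariate. In the same order, the shares of all genes at this level in these fits were 3.11%, 1.28%, 1.01% and 1.81%. Without Lira mouse 1, 1 gene was lower, the list median went from 0.17 to -0.22, and the log2 fold changes of *Trim63*, *Fbxo32* and *Pdk4* were -1.0002, -0.96 and -0.81.

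**Figure D4:**
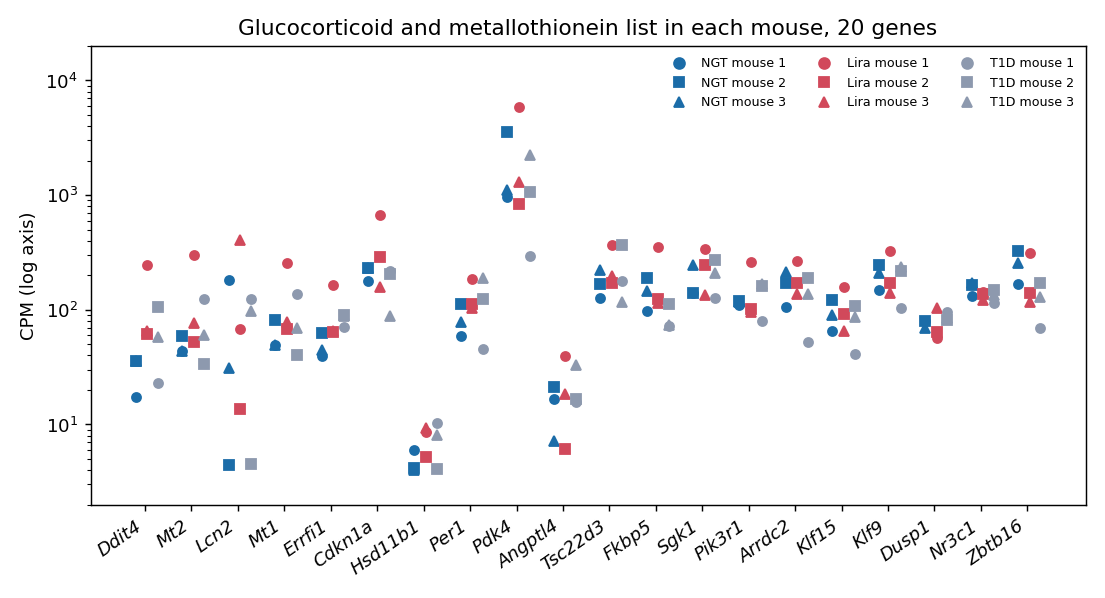
CPM on a log axis for the 20 tested genes of the glucocorticoid and metallothionein list, ordered by their fitted fold change, in each NGT (blue), Lira (red) and T1D (grey) mouse, with the marker shape giving the mouse number. Lira mouse 1 (red circle) is the highest of the 6 NGT and Lira mice for 15 of the genes, up to 5873 CPM of *Pdk4*, but not for *Lcn2*, *Hsd11b1*, *Dusp1*, *Nr3c1* and *Zbtb16*.

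Other stress lists also had a pair of higher members. In the p53 list, *Btg2*, an antiproliferative gene, was at 37.9, 34.8 and 21.9 CPM in NGT mice and 150.2, 39.1 and 85.5 CPM in Lira mice (log2 fold change 1.54 ± 0.49 (SE), and 0.99 without Lira mouse 1), and *Trp53inp1*, a p53 cofactor, at 38.4, 26.5 and 30.8 CPM against 71.7, 37.98 and 56.9 CPM (log2 fold change 0.80 ± 0.27 (SE)). These were 2 of 18 genes, with 0 lower, and the count was 0 without NGT mouse 3, 0 without Lira mouse 1 and 1 without NGT mouse 2. The list median of 0.31 became -0.02 without Lira mouse 1. *Cdkn1a*, the p21 cell cycle inhibitor, was at 178, 234 and 229 CPM against 667, 286 and 157 CPM and overlapped. In the integrated stress response list, *Ppp1r15a*, which restores translation after stress, was at 72.7, 44.6 and 56.8 CPM against 163, 56.6 and 176 CPM (log2 fold change 1.18 ± 0.44 (SE)), and with *Ddit4* made 2 of 19 genes, again with 0 lower. Without Lira mouse 1, 1 gene of this list was higher and 1 lower, and without Lira mouse 3, NGT mouse 2 or NGT mouse 3 the count was 1 higher.

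Among 25 tested genes of insulin and IGF signaling, *Ghr* was the 1 lower gene at p under 0.05 and 0 were higher, and the list median was -0.019. *Ghr* was at p under 0.05 in 12 of the 17 alternatives. The list had 1 higher and 0 lower members with the replicate block and without Lira mouse 3, 0 of either without NGT mouse 2, NGT mouse 3 or Lira mouse 1, 2 lower without Lira mouse 2, and 1 higher and 2 lower without NGT mouse 1. *Grb10*, an adaptor that restrains the insulin receptor, was at 56.8, 71.02 and 64.6 CPM in NGT mice and 48.7, 54.6 and 54.9 CPM in Lira mice (log2 fold change -0.28 ± 0.14 (SE)), with ranges apart. *Txnip*, a glucose-induced inhibitor of glucose uptake, was at 790.3, 844 and 675 CPM against 2010.3, 1138 and 830.2 CPM (log2 fold change 0.78 ± 0.36 (SE), and 0.36 without Lira mouse 1).

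Of 9 tested receptors and partners for incretins and calcium-regulating hormones, 1 was lower. *Ramp2*, the partner of the adrenomedullin receptor, was at 34.6, 31.1 and 34.4 CPM in NGT mice and 28.2, 24.5 and 20.3 CPM in Lira mice (log2 fold change -0.46 ± 0.17 (SE)). Its receptor *Calcrl* was at 16.4, 19.4 and 16.7 CPM against 13.9, 17.9 and 13.8 CPM, overlapping. In this list 0 genes were lower in 6 of the 17 alternatives. *Casr*, the calcium-sensing receptor, was at 18.5, 40.1 and 59.9 CPM against 22.7, 24.3 and 24.8 CPM, with NGT mouse 1 below the Lira range and NGT mice 2 and 3 above it.

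Among 20 genes of lipid synthesis, *Me1* alone was at p under 0.05, and the list median was -0.18. *Srebf1*, the factor that drives this pathway, was at 49.03, 51.7 and 33.3 CPM in NGT mice and 28.3, 36.7 and 35.2 CPM in Lira mice (log2 fold change -0.42 ± 0.21 (SE)). Without NGT mouse 3 the list had 3 lower members and a median of -0.46, and without NGT mouse 1 it had 1 higher and 1 lower member and a median of 0.18.

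In the bone cell lists no member was at p under 0.05. Of 13 osteoclast resorption genes, 10 had a log2 fold change above 0 and the median was 0.27. It ranged from 0.021 without Lira mouse 3 to 0.81 without NGT mouse 1 and was 0.052 with the erythroid and neutrophil covariate. *Ctsk*, the collagen-degrading cathepsin, was at 30.7, 2.69 and 11.7 CPM in NGT mice and 33.1, 4.87 and 47.4 CPM in Lira mice (log2 fold change 0.92 ± 1.0043 (SE)). *Acp5*, the tartrate-resistant acid phosphatase, was at 35.7, 2.92 and 12.3 CPM against 33.5, 3.82 and 62.7 CPM (log2 fold change 0.97 ± 1.10 (SE)). Without Lira mouse 3 these log2 fold changes were 0.33 and 0.13, and without NGT mouse 1 they were 1.9979 and 2.15. Both genes were lowest in mouse 2 of either group and highest in Lira mouse 3, as the marrow lists were, and with an SE of about 1 log2 unit a difference of 2-fold was not detectable.

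Among the osteoclast regulators, 0 genes were at p under 0.05 in the reported fit. With DESeq2, with the fast muscle covariate, without NGT mouse 1 and without Lira mouse 2, 1 was higher and 0 were lower. *Nfatc1*, the master factor of osteoclast formation, was at 67.02, 77.3 and 64.9 CPM in NGT mice and 66.5, 91.5 and 75.1 CPM in Lira mice (log2 fold change 0.16 ± 0.17 (SE), and 0.032 without Lira mouse 2). *Tnfrsf11a*, which encodes the receptor RANK, was at 1.79, 0.598 and 0.773 CPM against 1.60, 0.899 and 1.95 CPM. *Fos*, a subunit of AP-1 needed for osteoclasts, was at 5.89, 6.65 and 3.40 CPM against 7.93, 7.04 and 16.5 CPM (log2 fold change 0.98 ± 0.43 (SE), and 0.49 without Lira mouse 3), with ranges narrowly apart. Of 18 genes of the RANK and M-CSF list, 15 lay above 0 with a median of 0.38, which was 0.054 without Lira mouse 3 and 0.96 without NGT mouse 1. The ligand gene *Tnfsf11* (RANKL) had at most 13 counts in a library and was not tested.

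Of 16 osteoblast genes, 6 lay above 0, with a median of -0.081. *Spp1*, osteopontin, was at 71.7, 4.04 and 26.8 CPM in NGT mice and 77.7, 9.06 and 179 CPM in Lira mice, highest in Lira mouse 3. With the erythroid and neutrophil level as a covariate, 3 of the 16 genes were lower at p under 0.05, beside 1.81% of all genes in either direction, and the median was -0.45. Without NGT mouse 2, 1 gene was lower and the median was -0.55, and without Lira mouse 3 the median was -0.46. It lay above 0 without NGT mouse 1 (0.32), without Lira mouse 2 (0.097), without NGT mouse 3 or with the replicate block (both 0.043), and with all 9 libraries (0.0022), with 0 genes higher or lower at p under 0.05 in each. In the Wnt and BMP list, 0 of 36 genes were at p under 0.05 (1 higher and 4 lower without Lira mouse 2), while 2 higher genes and 1 lower gene had ranges apart, beside 2.24% and 2.25% of all genes. *Smad7*, a feedback inhibitor of TGF-β signaling, was at 7.04, 6.803 and 6.50 CPM in NGT mice and 9.66, 9.29 and 9.16 CPM in Lira mice (log2 fold change 0.47 ± 0.20 (SE)). *Id1*, a BMP target gene, was at 9.73, 11.4 and 7.42 CPM against 14.4, 11.8 and 11.7 CPM (log2 fold change 0.41 ± 0.23 (SE), and 0.26 without NGT mouse 3), and *Lrp6*, a Wnt co-receptor, at 74.1, 83.3 and 75.1 CPM against 63.2, 71.9 and 54.2 CPM (log2 fold change -0.30 ± 0.15 (SE)).

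Cartilage genes differed mainly by mouse. *Acan*, the aggrecan of cartilage, was at 1.15, 0.15 and 0.696 CPM in NGT mice and 14.7, 0.225 and 1.37 CPM in Lira mice. *Prg4*, the lubricin of the joint surface, was at 121, 27.7 and 13.6 CPM against 554, 50.6 and 61.5 CPM, and at 1329, 218 and 54.2 CPM in T1D mice. Without Lira mouse 1 the log2 fold change of *Prg4* went from 2.03 to 0.047. How much of the joint surface each library held was not tested.

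The marrow and muscle lists themselves did not differ beyond their spread. The median log2 fold change was 1.83 over 26 erythroid genes, 1.01 over 23 neutrophil genes and 1.43 over 30 cell cycle genes, with 0 of these at p under 0.05. Without Lira mouse 3 these medians were -0.23, -1.0049 and -0.43, and without NGT mouse 1 they were 3.18, 2.98 and 2.78. *Hba-a1*, an alpha-globin gene with a near-identical copy, was at 2303, 131 and 934 CPM in NGT mice and 1502, 286 and 10668 CPM in Lira mice, and its log2 fold change of 1.89 became -0.33 without Lira mouse 3. *Mki67*, a marker of dividing cells, was at 119, 0.897 and 29.3 CPM against 61.9, 3.45 and 350.1 CPM. For the 20 fast muscle genes the median was -0.14 (0.11 without NGT mouse 3 and -0.37 without NGT mouse 1), and *Myh4*, the fast myosin IIb gene, was at 20871, 43449 and 57707 CPM against 53779.7, 44548 and 28398 CPM. *Myh7*, the slow myosin gene, was at 527, 3027 and 133 CPM against 657, 1060.4 and 2074 CPM, and its lowest and highest values were both in NGT mice.

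**Figure D5:**
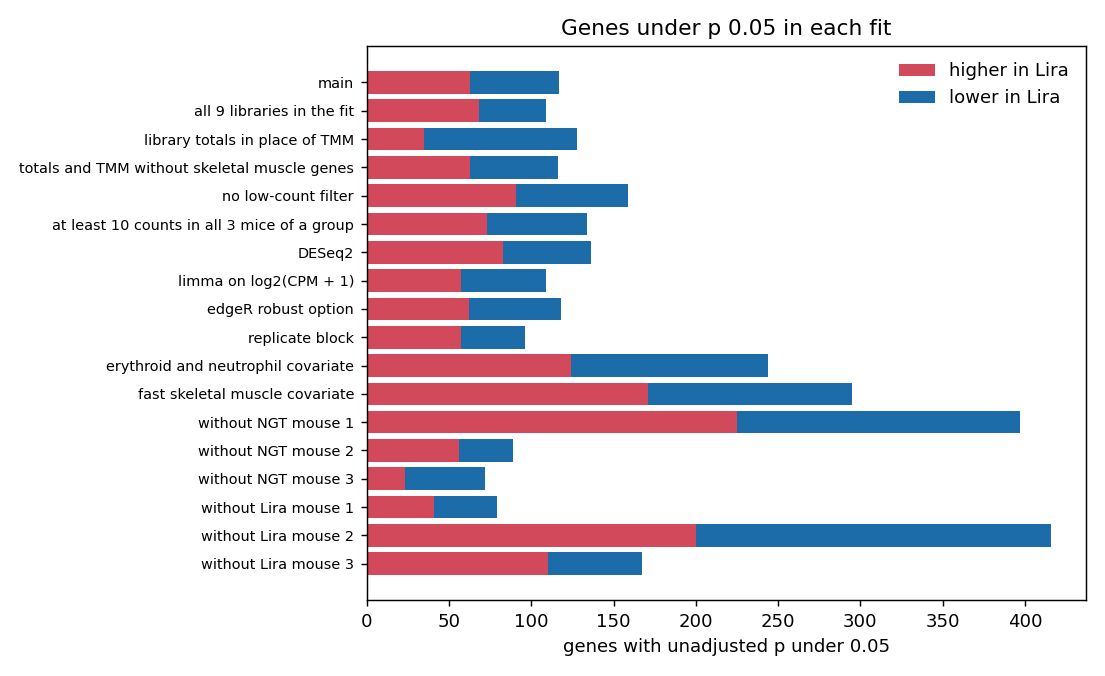
Number of genes with an unadjusted p-value under 0.05 (horizontal axis) between Lira and NGT mice in the reported fit (top bar, 117 genes) and in the 17 alternatives, split into genes higher (red) and lower (blue) in Lira. The count runs from 72 without NGT mouse 3 to 416 without Lira mouse 2, and no fit had a DEG.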

How the data were processed

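RNA of 9 tibiae, 3 each from NGT, T1D and Lira mice, had been enriched for mRNA with oligo(dT) and sequenced as DNA nanoballs. The authors deposited 1 table of 18272 genes with expected counts, estimated per gene and not normalized (30.2% were not whole and were rounded here), and, beside these, FPKM values scaled by the authors for depth and transcript length, which entered no result. The submitters' processing notes name build mm9. The aligner, the counting tool and the strand setting are not given in the sources used here. No coordinates on the build of the counts are given, since the reference tables are of GRCm38.p6. The promoter windows printed above carry GRCm38.p6 coordinates. RefSeq gave the same symbol for 97.3% of the NCBI gene numbers.

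Genes that had 10 counts or more in 3 or more of the 6 NGT and Lira libraries were fitted with edgeR 4.0.16 in R 4.3.3 (TMM, glmQLFit, glmQLFTest, 1 mean per group, two-sided), and p-values were adjusted over all 13444 genes by the Benjamini-Hochberg method. DEGs differed more than 2-fold with an adjusted p-value below 0.05. SEs were derived from the F statistic. The labels do not say whether litters or cages were shared, so p-values measure the spread between these mice. The procedure was run on simulated counts in which genes varied independently of each other. Marrow genes rise and fall together in these mice, so the simulation does not show what was detectable here. Limits from counts cover counting error only. Alternatives used DESeq2 1.42.0, limma 3.58.1 on log2(CPM + 1), edgeR's robust option, library totals, totals and TMM without muscle genes, all 9 libraries, other count filters, a replicate block, marrow or muscle covariates and leaving out each mouse.

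Named genes were, among genes of at least 5 CPM in a group, the 12 on each side with the lowest p-values and ranges apart. Others were taken without this floor from the genes the study names. In each list, at most 4 members with the lowest p-values and 3 with the highest level were eligible, also without the floor. Not every eligible gene of the study or of a list is described. *Oasl1*, *Oas2*, *Ifi27l2a* and the major urinary protein genes were outside this rule and chosen after their values were seen. A gene of the interferon list is not reported here by itself. The comparison and all gene lists were chosen with earlier results of these data known.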

Additional observations from a re-analysis of the deposited data

How the results depend on the processing

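All 17 alternatives gave 0 DEGs, as did dropping the fold threshold. The 117 genes at p under 0.05 became 244 with the erythroid and neutrophil covariate and 295 with the fast muscle covariate, and leaving out each mouse gave 72 (without NGT mouse 3) to 416 (without Lira mouse 2), with 397 without NGT mouse 1. Members of the gene lists at p under 0.05 numbered 19, and 31 with DESeq2, 49 and 39 with the 2 covariates, and 11 to 69 when each mouse was left out, with 69 without NGT mouse 1, 45 without Lira mouse 2, 30 without Lira mouse 3 and 11 without NGT mouse 3. The cause of these shifts was not tested. In DESeq2, 5 adjusted p-values were not assigned.

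Log2 CPM deviations of NGT and Lira mice with the same number correlated across genes at -0.17, 0.74 and 0.013. NGT mouse 1 correlated best with Lira mouse 3 (0.79), and both were rich in marrow transcripts. Genes are not independent replicates, so these values cannot decide whether replicate numbers pair the mice. With the replicate block there were 0 DEGs and 96 genes at p under 0.05.

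Of 80 genes named, 69 kept their direction in every alternative, and 1327 of 1351 values did. Reversed log2 fold changes were, with the block, -0.11 for *Trim63* and -0.21 for *Fbxo32*; with limma, -0.15 for *Fbxo32* and 0.0032 for *Col1a1*; with the erythroid and neutrophil covariate, -0.059 for *S100a8*, -0.21 for *Mki67* and 0.057 for *Acta1*; and with the muscle covariate -0.044 for *Myh7*. When mice were left out, the ranges that crossed 0 were -0.81 to 1.37 for *Pdk4*, -1.0002 to 1.10 for *Trim63*, -0.96 to 0.63 for *Fbxo32*, -0.16 to 2.85 for *Car2*, -0.33 to 2.98 for *Hba-a1*, -1.34 to 3.13 for *S100a8*, -0.61 to 3.21 for *Mki67*, -0.25 to 0.39 for *Myh4*, -0.34 to 0.035 for *Acta1* and -0.51 to 1.94 for *Myh7*. With 3 mice a group and a median SE of 0.27, small differences and those of marrow genes were not detectable.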

Other observations

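Some gene groups with few or no members at p under 0.05 held single genes of note. Among eosinophil granule genes, *Prg2* and *Epx* had ranges apart and *Ear1* did not. *Prg2*, the eosinophil major basic protein, was at 2.37, 0 and 1.39 CPM in NGT mice and 9.25, 3.15 and 7.50 CPM in Lira mice (log2 fold change 2.39 ± 1.14 (SE)). *Epx*, eosinophil peroxidase, was at 0.96, 0 and 0.541 CPM against 3.68, 1.42 and 1.60 CPM (log2 fold change 2.12 ± 1.02 (SE)), and *Ear1*, a granule ribonuclease, at 0.704, 0 and 0.0773 CPM against 2.43, 0.749 and 0.401 CPM. *Prg2* and *Epx* were 2 of 14 tested mast cell, eosinophil and basophil genes with ranges apart, beside 2.24% of all genes, and 0 of the 14 were at p under 0.05, but 3 were higher with the replicate block and 2 without NGT mouse 1. *Aplnr*, the apelin receptor of endothelium, was at 10.5, 6.88 and 7.19 CPM against 1.25, 4.87 and 3.83 CPM (log2 fold change -1.30 ± 0.51 (SE)), the 1 lower gene of 24 endothelial genes, with 0 lower without any 1 of the NGT mice or without Lira mouse 3.

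Major urinary protein genes, known for high expression in liver and for near-identical copies that make their counts uncertain, were high in single mice. *Mup2* was at 94.6, 34.5 and 2.55 CPM in NGT mice, 1.88, 3.97 and 1.89 CPM in Lira mice and 217, 0.982 and 0.333 CPM in T1D mice. *Mup11* was at 121, 27.4 and 0 CPM in NGT mice and 0.834, 1.05 and 0.687 CPM in Lira mice. NGT mice 1 and 2 and T1D mouse 1 thus stood above the others, and NGT mouse 3 lay within the range of the Lira mice for *Mup2*. With DESeq2, *Mup2* had the lowest p-value of all genes (adjusted p = 0.0995), and with edgeR its log2 fold change was -4.09 ± 1.18 (SE). The source of these transcripts was not tested.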
